A study of Mus musculus with 6 samples.

Results

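The miR-106a to miR-363 cluster is a group of microRNA (miRNA) hairpins on the mouse X chromosome. It was followed here through 6 of the mature miRNAs that only this cluster makes: mmu-miR-106a-5p, mmu-miR-18b-5p, mmu-miR-18b-3p, mmu-miR-20b-5p, mmu-miR-20b-3p and mmu-miR-363-3p, written below without the species prefix. The other arms of its hairpins are not members and are given apart from them. They were picked by full mature name, which matched 6 of 1899 entries, each a row of its own. miR-19b-3p and miR-92a-3p, which the cluster shares with another chromosome, were left out of the sums. Reads matched to 1 entry were used, and 5 of the 6 members had no read matched to several entries in any library. miR-18b-5p had 3 such reads, 2 at dox 24 h and 1 in RA-treated WT, which were not used.

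Small RNA sequencing counted mature miRNAs in mouse embryonic stem cells of strain 129/Ola, with 1 library for each of 6 groups. Wild-type (WT) cells and cells in which Wt1, which encodes a zinc finger transcription factor, was knocked out (KO) were each sequenced untreated and with 1 µM retinoic acid (RA), a vitamin A derivative that drives stem cells to differentiate. The labels write the dose unit as µm, which is read here as micromolar, and the time in RA is not given in the sources used here. The other libraries are Wt1 KO cells in which Wt1 was induced for 12 h or 24 h by 1 µg/ml doxycycline (dox). Which clone holds the inducible Wt1 is not said in the labels, and no library of cells given dox without it was used here. All cells grew on gelatin with serum and leukaemia inhibitory factor, with no feeder layer named. Small RNA libraries do not measure Wt1 mRNA, so knockout and induction were not checked.

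Unique-match totals were between 1063945 and 6106104 reads in 5 libraries and 83626 reads in RA-treated Wt1 KO, so the deepest library held 73.0 times the reads of the shallowest. Levels are given as normalised CPM, which are read counts brought to a common library size with TMM factors (trimmed mean of M values). A count of 0 allows up to 3 reads, which is 27.8 normalised CPM in RA-treated Wt1 KO and between 0.448 and 2.75 normalised CPM in the others. All intervals are 95% intervals that cover counting error only, and with 1 library per group no difference between conditions could be tested. A miRNA is called higher or lower below where its log2 ratio lies at or beyond 1 or -1 with an interval that excludes 0. The miR-290 and miR-302 clusters, the markers of mouse embryonic stem cells, held between 16.1% and 23.5% of reads in the libraries without RA, and all of their 16 listed members had reads there. The 6 blood markers held between 0.0125% and 0.390% of reads in a library. Of these, miR-150-5p, miR-155-5p and miR-142a-5p had reads in all 6 libraries, and miR-142a-3p had reads in 3. miR-150-5p had the most, between 22 and 11019 reads in a library, while miR-223-3p and miR-451a had no read in any.

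The cluster is a paralog of the miR-17 to miR-92a cluster and of the shorter miR-106b to miR-25 cluster, which arose by duplication and make several miRNAs with the same seeds. The seed, bases 2 to 8 of a miRNA, does most of the pairing with target mRNAs. miR-18b-3p and miR-20b-3p differ in these bases from miR-18a-3p and miR-20a-3p. miR-106a-5p and miR-20b-5p belong to the miR-17 seed family, known for promoting cell cycle entry by repressing inhibitors such as Cdkn1a. miR-363-3p carries the seed of the miR-25 and miR-92 family, known for repressing the pro-apoptotic gene Bcl2l11. A hairpin is cut into a 5p and a 3p arm, and one of them is usually kept in larger amount.

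The 6 mature sequences are shown with the seed in capitals, 5′ to 3′, since the families are defined by it. All come from RefSeq on build GRCm38.p6, where each lies on the minus strand of the X chromosome.
miR-106a-5p (chrX:52742541-52742563): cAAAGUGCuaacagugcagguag
miR-20b-5p (chrX:52742159-52742181): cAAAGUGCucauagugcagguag
miR-18b-5p (chrX:52742381-52742403): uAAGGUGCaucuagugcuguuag
miR-18b-3p (chrX:52742342-52742363): uACUGCCCuaaaugccccuucu
miR-20b-3p (chrX:52742122-52742143): aCUGCAGUgugagcacuucuag
miR-363-3p (chrX:52741697-52741718): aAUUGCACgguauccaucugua
miR-106a-5p and miR-20b-5p share the seed AAAGUGC and differ in 2 of 23 bases, A10C and C12U. Positions are counted from 1 at the 5′ end, with the base of the first-named miRNA written first.

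The paralogs that could be mistaken for them when reads are matched are shown beside them, again with the seed in capitals.
miR-17-5p: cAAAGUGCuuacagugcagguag
miR-20a-5p: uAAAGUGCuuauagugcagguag
miR-18a-5p: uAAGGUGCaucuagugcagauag
miR-25-3p: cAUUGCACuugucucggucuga
miR-106a-5p differs from miR-17-5p by A10U alone. miR-20b-5p differs from miR-20a-5p by C1U and C10U, and miR-18b-5p differs from miR-18a-5p by U18A and U20A. miR-363-3p shares 9 of 22 bases with miR-25-3p, so this pair cannot be confused by a single mismatch. How many mismatches the authors' matching allowed is not given in the sources used here, so reads of the near-identical pairs may be entered at the wrong copy.

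In RefSeq the 6 hairpins of the cluster span 875 bases, chrX:52741693-52742567, in the transcribed order Mir106a, Mir18b, Mir20b, Mir19b-2, Mir92-2 and Mir363. GENCODE vM21 places no other gene inside the span except the last 5 bases of Kis2, a non-coding transcript on the same strand (chrX:52742563-52744960), so the hairpins lie outside annotated exons and introns of protein-coding genes. The Mir18b and Mir20b hairpins, from which both arms were counted, are shown with the mature arms in capitals.
Mir18b: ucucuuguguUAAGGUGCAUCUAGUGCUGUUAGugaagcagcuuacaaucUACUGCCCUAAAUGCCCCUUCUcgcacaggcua
Mir20b: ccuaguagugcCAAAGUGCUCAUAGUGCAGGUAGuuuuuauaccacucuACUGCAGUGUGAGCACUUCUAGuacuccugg

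All 6 members were lowest in RA-treated WT and higher in every library without RA. miR-106a-5p was at 196 normalised CPM in untreated WT cells and 680 in their Wt1 KO counterpart. It was at 430 and 584 once dox had been given for 12 h and 24 h, and at 13.0 and 74.0 in RA-treated WT and Wt1 KO. Its seed partner miR-20b-5p was at 197, 709, 451.5, 580, 13.7 and 139 normalised CPM in the same order. In the 5 libraries other than RA-treated Wt1 KO, where the pair rests on 8 and 15 reads, the level of miR-20b-5p was between 0.993 and 1.06 times that of miR-106a-5p.

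The miR-18b hairpin gave a moderate level from both arms. miR-18b-3p was at 111 normalised CPM in untreated WT cells and 412 in their Wt1 KO counterpart. It was at 319 and 441 once dox had been given for 12 h and 24 h, and at 7.32 and 74.0 in RA-treated WT and Wt1 KO. miR-18b-5p was at 41.3, 182, 81.3, 140, 11.7 and 37.0 normalised CPM in that order, which rests on 4 reads in the last library. Both arms were higher in all 4 libraries without RA than in RA-treated WT. miR-20b-3p, the minor arm of its hairpin, was the scarcest member, at 20.2, 56.0, 54.8, 48.2, 1.49 and 18.5 normalised CPM, with 2 reads in the last library.

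miR-363-3p was the most abundant member in every library. It was at 1501 normalised CPM in untreated WT cells and 2174 in their Wt1 KO counterpart. It was at 2241 and 1986 once dox had been given for 12 h and 24 h, and at 180 and 676 in RA-treated WT and Wt1 KO. It gave 72.6%, 51.6%, 62.6%, 52.5%, 79.2% and 66.4% of the summed reads of the 6 members in that order, so these sums follow it most. Its range from the lowest to the highest library was 12.5-fold, the narrowest of the 6 members, against 15.6-fold for miR-18b-5p, 37.5-fold for miR-20b-3p, 51.6-fold for miR-20b-5p, 52.4-fold for miR-106a-5p and 60.2-fold for miR-18b-3p.

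Summed over the 6 members, the order of the levels was untreated Wt1 KO at 4213 normalised CPM, dox 24 h at 3779, dox 12 h at 3577, untreated WT at 2067, RA-treated Wt1 KO at 1018 and RA-treated WT at 227. The 3 highest neighbours are close, and their order changes with the scaling. The lowest 3 differ from each other by more than counting error.

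**Figure D1:**
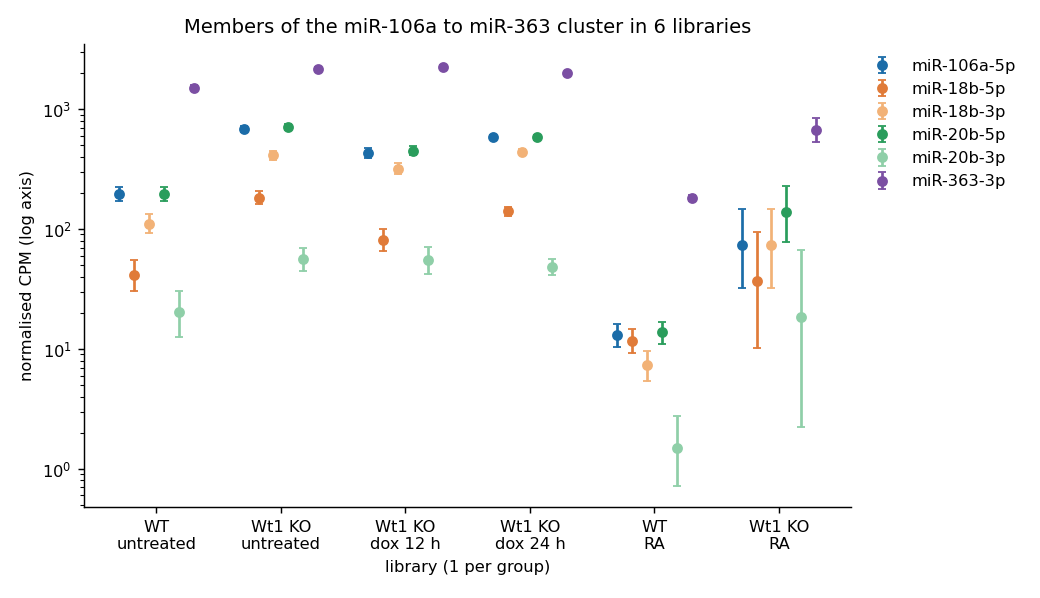
Level of each of the 6 members in the 6 libraries, in normalised CPM on a log axis; points are the level in the 1 library of each group and bars are exact 95% intervals of the count. All members sit lowest in RA-treated WT, where miR-20b-3p is at 1.49 and miR-363-3p at 180 normalised CPM, and the bars are widest in RA-treated Wt1 KO, the shallowest library.

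Untreated Wt1 KO was compared with untreated WT, the comparison that the series is built on. The members encoded in the first 3 hairpins had higher levels in Wt1 KO. miR-106a-5p was at 196 normalised CPM in WT and at 680, from 960 reads, in Wt1 KO. Read counts without and with the knockout were 215 and 1001 for miR-20b-5p, 45 and 257 for miR-18b-5p, 121 and 581 for miR-18b-3p, and 22 and 79 for miR-20b-3p. The log2 ratio was 1.79 [1.58 to 2.01] for miR-106a-5p and 1.84 [1.63 to 2.07] for miR-20b-5p, with miR-18b-5p at 2.13 [1.68 to 2.63], miR-18b-3p at 1.89 [1.61 to 2.19] and miR-20b-3p at 1.46 [0.77 to 2.22]. All 5 intervals overlap, at 2.75-fold to 4.39-fold higher levels. miR-363-3p, with 1635 reads in WT and 3067 in Wt1 KO, was at 0.53 [0.45 to 0.62], which is 1.45-fold and short of the call. Its interval lies below those of the other 5.

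By the size rule 5 of 6 members were higher and none lower in untreated Wt1 KO, where 12.3% of all tested entries, those whose mean count over the libraries reached 50, were called higher and 15.4% lower. The members' median log2 ratio was 1.82, against 0.11 over all tested entries. The summed cluster was at 1.03 [0.96 to 1.10], and at 1.85 without miR-363-3p. Scaled to the library total in place of TMM, which lowers the median of all entries by 0.35, the sum was at 0.67 and no longer called. The sum also lost its call by median of ratios, at 0.97, and scaled to the total less the stem cell clusters, at 0.68, while the same 5 members kept their calls under all 3 scalings.

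The paralogs on other chromosomes were compared in the same libraries. miR-17-5p was at a log2 ratio of 0.99 [0.85 to 1.14], miR-20a-5p at 1.12 [0.86 to 1.38], miR-18a-5p at 1.53 [1.08 to 2.02] and miR-25-3p at 0.51 [0.46 to 0.55]. Of the 6 tested members of the miR-17 to miR-92a cluster 2 were called higher and 1 lower, and of the 6 members of the miR-106b to miR-25 cluster none was called. A pair within a library needs no scaling, and between untreated WT and Wt1 KO the share of miR-106a-5p in the reads of miR-106a-5p and miR-17-5p went from 29.0% [25.7 to 32.4] to 41.5% [39.5 to 43.6]. For miR-20b-5p with miR-20a-5p it went from 55.7% [50.6 to 60.7] to 67.5% [65.1 to 69.9], and for miR-18b-3p with miR-18a-3p from 38.2% [32.8 to 43.8] to 62.2% [59.0 to 65.3]. In these 3 pairs the X-linked copy gained on its paralog by more than counting error. The shares of miR-18b-5p, 47.4% [37.0 to 57.9] and 57.8% [53.0 to 62.4], overlap in their intervals, as do those of miR-363-3p with miR-25-3p, 18.3% and 18.6%. miR-92a-3p, which has the seed of miR-363-3p and is in neither list, was called higher at 1.17 [1.16 to 1.17]. Paired with it, miR-363-3p went from 0.759% to 0.491%, a log2 odds ratio of -0.63 [-0.72 to -0.54].

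Other markers differed between these libraries too. The fibroblast and mesenchyme list held 6.27% of reads in untreated WT against 1.29% for Wt1 KO, with 3 of its 4 tested members lower and 1 higher in Wt1 KO. The stem cell list held 16.1% and 16.9%, yet 3 of its 15 tested members were lower in Wt1 KO and 0 higher. The differentiation list held 0.154% and 0.104%, with 1 of its 7 tested members lower and 0 higher. The blood list held 0.0915% and 0.241%, with 1 of its 2 tested members higher in Wt1 KO. The part of such differences in the cluster's values was not tested. In bulk RNA, fewer cells of a type and less RNA per cell cannot be told apart, here and below.

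RA in WT cells addresses how the miRNAs shift with differentiation. Every member was far lower with RA. miR-106a-5p was at 196 normalised CPM without RA and at 13.0, from 87 reads, with RA. Counts without and with RA were 215 and 92 for miR-20b-5p, 121 and 49 for miR-18b-3p, 45 and 78 for miR-18b-5p, 22 and 10 for miR-20b-3p, and 1635 and 1204 for miR-363-3p, in a library with 5.74 times the reads. In log2 ratios, miR-106a-5p was at -3.90 [-4.29 to -3.55], miR-18b-3p at -3.88 [-4.43 to -3.43], miR-20b-3p at -3.58 [-5.0 to -2.62] and miR-20b-5p at -3.82 [-4.21 to -3.49]. These 4 are 11.9-fold to 14.9-fold lower and their intervals overlap. miR-363-3p was at -3.06 [-3.17 to -2.95], 8.34-fold lower, and miR-18b-5p stood apart at -1.81 [-2.37 to -1.26], 3.50-fold lower.

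By the size rule 6 of 6 members were lower with RA in WT, where 24.2% of tested entries were lower and 22.5% higher. The members' median log2 ratio was -3.70, against 0.14 over all entries, and the summed cluster was at -3.19 [-3.28 to -3.09]. The differentiation markers, let-7 and HOX cluster miRNAs, held 0.154% of reads without RA and 11.5% with RA, and 7 of 7 measured markers were higher. The stem cell list held 16.1% and 0.753% of reads, and 15 of 15 tested members were lower. The part of these changes of cell state in the cluster's values was not tested.

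The listed members of the paralog clusters did not as a group follow the X-linked cluster with RA in WT. The list of the miR-17 to miR-92a cluster leaves out miR-19b-3p and miR-92a-3p, which the X-linked cluster also makes. These were at -0.42 [-0.96 to 0.14] and -1.68 [-1.69 to -1.67], and miR-92a-3p was called lower. Among the listed members, miR-18a-3p was at -0.67 [-0.90 to -0.44] and short of the call. None of the 6 tested members of the miR-17 to miR-92a cluster and none of the 6 of the miR-106b to miR-25 cluster was called in either direction, with median log2 ratios of 0.40 and 0.01. miR-17-5p was at 0.69 [0.56 to 0.83], miR-20a-5p at 0.85 [0.63 to 1.09] and miR-25-3p at -0.01 [-0.04 to 0.03], while the X-linked members with the same seeds were lower. The share of miR-106a-5p in its pair went from 29.0% to 1.64% [1.32 to 2.02], that of miR-20b-5p from 55.7% to 4.63% [3.75 to 5.65], and that of miR-18b-3p from 38.2% to 6.10% [4.55 to 7.99]. miR-363-3p went from 18.3% to 2.63% [2.48 to 2.78] of its pair with miR-25-3p. As log2 odds ratios these were -4.61 [-5.01 to -4.22] for miR-106a-5p, -4.69 [-5.13 to -4.26] for miR-20b-5p, -3.24 [-3.81 to -2.70] for miR-18b-3p and -3.06 [-3.17 to -2.94] for miR-363-3p.

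The smallest difference belonged to miR-18b-5p, whose share of its pair with miR-18a-5p went from 47.4% to 13.3% [10.7 to 16.3]. Its 78 reads in RA-treated WT stand beside 508 reads of miR-18a-5p, from which it differs by U18A and U20A near the 3′ end. miR-106a-5p, which differs from miR-17-5p near its middle, has 87 reads beside 5219. How far reads of a paralog entered at the X-linked copy hold up these low counts was not tested.

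**Figure D2:**
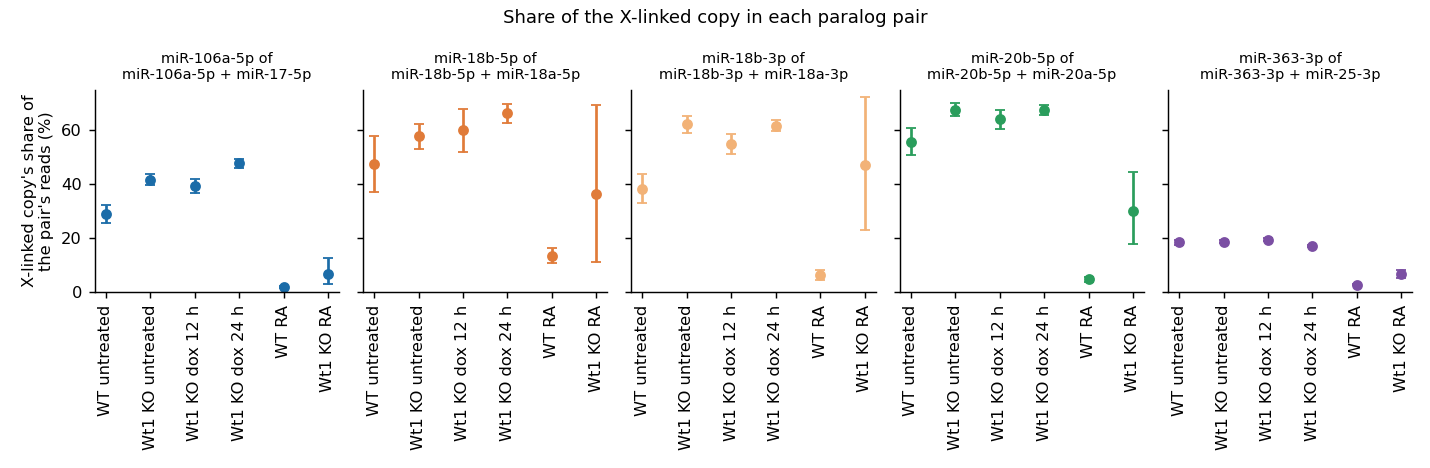
Share of the X-linked copy in the summed reads of 5 paralog pairs, in percent, for the 6 libraries on the x axis; bars are exact 95% intervals. In each pair the share is lowest in RA-treated WT, down to 1.64% for miR-106a-5p, and in RA-treated Wt1 KO it lies between RA-treated WT and untreated Wt1 KO.

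In all 6 libraries the miRNAs with the seed AAAGUGC held between 0.625% and 0.731% of the reads, while the part of these that came from the X-linked cluster varied from 0.469% to 17.6%. The totals are in percent of each library's reads without TMM scaling, whose factors ran from 0.798 to 1.29. How close they lie to each other thus depends on the scaling. The 7 entries with this seed, of which miR-6383 had no read, took 0.640% of reads for untreated WT, 0.632% for untreated Wt1 KO, 0.668% and 0.672% at dox 12 h and 24 h, 0.625% in RA-treated WT and 0.731% in RA-treated Wt1 KO. miR-106a-5p and miR-20b-5p together made up 6.30% [5.74 to 6.91] of these reads for untreated WT, 17.6% [16.9 to 18.3] for untreated Wt1 KO, 12.2% and 16.2% with dox, 0.469% [0.403 to 0.543] in RA-treated WT and 3.76% [2.40 to 5.59] in RA-treated Wt1 KO. miR-93-5p, from the miR-106b to miR-25 cluster, was the main source in all of them. For the seed AUUGCAC of miR-363-3p, shared by 6 entries and held mostly by miR-92a-3p, the cluster's part ran from 0.242% in RA-treated WT to 0.758% at dox 12 h. These shares do not count the miR-92a-3p that the cluster itself makes, which cannot be told apart from that of chromosome 14.

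**Figure D3:**
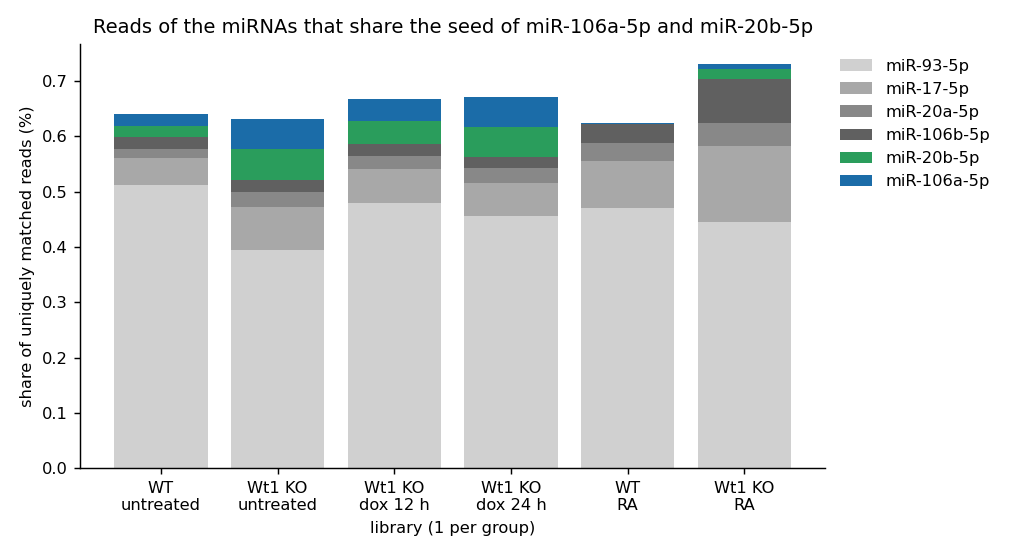
Reads of the 6 miRNAs with the seed AAAGUGC that had any read, in percent of the uniquely matched reads of each library and stacked, with the X-linked miR-106a-5p and miR-20b-5p in colour and the paralogs in grey. The stacks total between 0.625% and 0.731%, while the coloured part ranges from 0.469% to 17.6% of the stack.

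RA in Wt1 KO cells gave the same direction, with ratios nearer to 0 than in WT for all members but miR-18b-5p, in a library of 83626 reads. Counts were 8 for miR-106a-5p, 15 for miR-20b-5p, 8 for miR-18b-3p, 4 for miR-18b-5p, 2 for miR-20b-3p and 73 for miR-363-3p, 110 in all, against 5945 in untreated Wt1 KO. In log2 ratios miR-106a-5p was at -3.20 [-4.42 to -2.22], miR-18b-3p at -2.47 [-3.69 to -1.49], miR-20b-5p at -2.35 [-3.20 to -1.62], miR-18b-5p at -2.29 [-4.19 to -0.92] and miR-363-3p at -1.69 [-2.04 to -1.35]. miR-20b-3p was at -1.59 [-4.67 to 0.30], with an interval that includes 0. By the size rule 5 of 6 members were lower, where 23.4% of tested entries were lower and 23.4% higher, and the median log2 ratio was -2.32 for the members and -0.11 for all entries. The call of miR-363-3p was lost when the counts were scaled to the library total, at -0.99.

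The summed cluster was at -2.05 [-2.33 to -1.78] with RA in Wt1 KO, and at -1.35 scaled to the library total, which raises the median of all entries by 0.69. Within pairs, miR-106a-5p went from 41.5% to 6.50% [2.85 to 12.4], miR-20b-5p from 67.5% to 30.0% [17.9 to 44.6] and miR-363-3p, paired with miR-25-3p, from 18.6% to 6.46% [5.10 to 8.05], each by more than counting error. Paired with miR-92a-3p, which has the same seed, miR-363-3p went the other way, from 0.491% to 0.682% [0.535 to 0.857]. The log2 odds ratio of that pair was 0.48 [0.12 to 0.81], against -1.38 [-1.49 to -1.27] with RA in WT. The shares of miR-18b-3p, at 47.1% [23.0 to 72.2] of 17 reads, and of miR-18b-5p, at 36.4% [10.9 to 69.2] of 11 reads, did not differ from untreated Wt1 KO by more than counting error at this depth. The stem cell list held 9.40% of reads with RA against 16.9% without, and 9 of its 15 tested members were lower. The differentiation list held 2.80% against 0.104%, with 6 of 7 higher.

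With RA in both genotypes, the cluster was higher in Wt1 KO than in WT. By the size rule 5 of 6 members were higher, where 17.9% of tested entries were higher and 19.4% lower, and the members' median log2 ratio was 2.90 against -0.07 over all entries. miR-20b-5p was at 3.32 [2.44 to 4.13], miR-18b-3p at 3.30 [2.05 to 4.43], miR-106a-5p at 2.49 [1.25 to 3.55] and miR-363-3p at 1.91 [1.55 to 2.25]. miR-20b-3p, from 2 reads against 10, was at 3.45 [0.40 to 5.86], and miR-18b-5p, from 4 reads against 78, was at 1.65 [-0.24 to 3.08] and not called. The summed cluster was at 2.16 [1.87 to 2.44]. In the pairs, which need no scaling, the log2 odds ratio between the genotypes was 2.06 [0.77 to 3.15] for miR-106a-5p, 3.14 [2.11 to 4.11] for miR-20b-5p, 3.76 [2.12 to 5.38] for miR-18b-3p and 1.36 [0.98 to 1.71] for miR-363-3p.

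In the same pair of libraries 13 of the 15 tested stem cell markers were higher and 3 of the 7 differentiation markers lower in RA-treated Wt1 KO, so markers of cell state differ between these libraries as well. Their part in the cluster's difference was not tested.

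The difference between the RA responses, the log2 ratio in Wt1 KO minus that in WT, was 1.14 [0.85 to 1.42] for the summed cluster. It was 1.37 [1.02 to 1.73] for miR-363-3p, 1.47 [0.66 to 2.29] for miR-20b-5p and 1.41 [0.30 to 2.53] for miR-18b-3p, and these 3 of 6 members were called higher, where 22.2% of 338 entries with reads in all 4 libraries were. miR-106a-5p at 0.70 [-0.37 to 1.77], miR-20b-3p at 1.99 [-0.30 to 4.29] and miR-18b-5p at -0.48 [-2.0 to 1.03] had intervals that include 0. The size depends on the scaling: relative to the library total it was 1.73 for the sum, where the median of all entries moved up by 0.58.

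**Figure D4:**
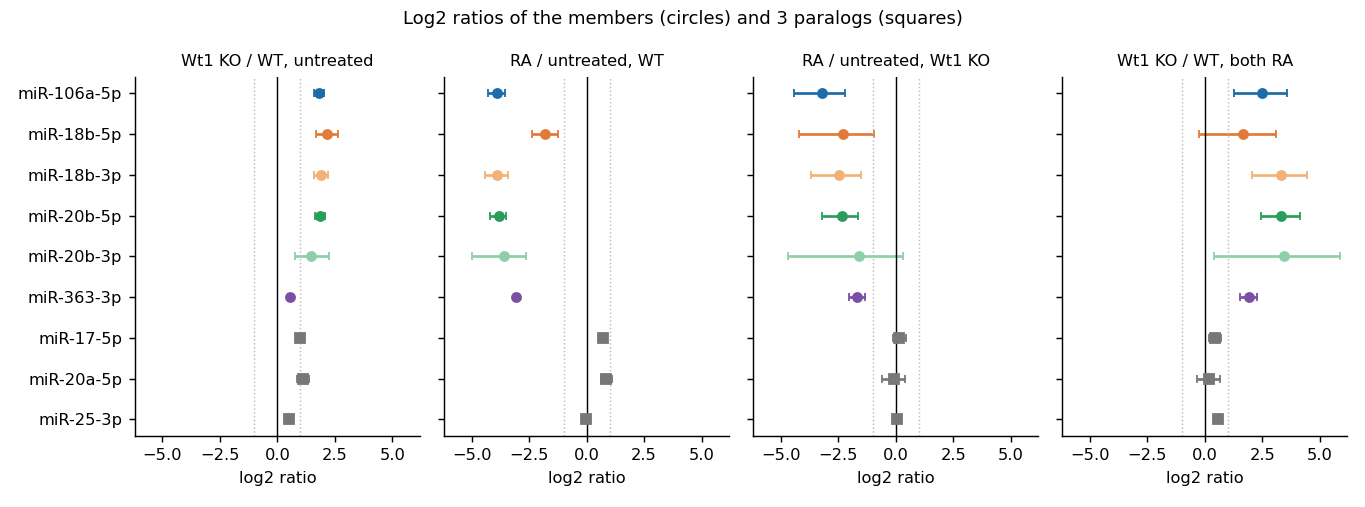
Log2 ratios with 95% intervals of counting error for the 6 members (circles) and 3 paralogs (squares) in 4 comparisons; dotted lines mark -1 and 1. The members lie to the right in untreated Wt1 KO against WT, to the left with RA in both genotypes and to the right between the genotypes with RA, while with RA miR-17-5p, miR-20a-5p and miR-25-3p stay between -1 and 1.

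The libraries of Wt1 KO cells given dox to induce Wt1 were compared with untreated Wt1 KO, as a description, since the induction was not checked. At dox 12 h, miR-18b-5p went from 257 to 92 reads, a log2 ratio of -1.16 [-1.52 to -0.82], and was the 1 member of 6 that was called lower, where 8.83% of tested entries were lower and 4.27% higher. This call was lost at -0.95 with counts scaled to the library total and at -0.83 scaled to the total less the stem cell clusters. Its paralog miR-18a-5p was at -1.30 [-1.75 to -0.88]. The log2 ratio was -0.66 [-0.82 to -0.50] for miR-106a-5p and -0.65 [-0.81 to -0.50] for miR-20b-5p, with miR-18b-3p at -0.37 [-0.56 to -0.18], miR-20b-3p at -0.03 [-0.54 to 0.47] and miR-363-3p at 0.04 [-0.03 to 0.12]. The members' median was -0.51, against -0.08 over all entries, and the summed cluster, at -0.24, came to 0.09 under that last scaling.

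At dox 24 h none of the 6 members was called against untreated Wt1 KO, where 5.7% of entries were higher and 3.7% lower. Their log2 ratios ran from -0.38 [-0.60 to -0.15] for miR-18b-5p to 0.10 [-0.04 to 0.24] for miR-18b-3p, with a median of -0.22 against -0.01 over all entries. The summed cluster was at -0.16, and at 0.08 scaled to the library total, so its direction is set by the scaling. Between 12 h and 24 h none was called either, where 4.27% of entries were higher and 0.855% lower. miR-18b-5p was at 0.78 [0.46 to 1.12], miR-106a-5p at 0.44, miR-18b-3p at 0.47 and miR-20b-5p at 0.36, and miR-20b-3p and miR-363-3p were at -0.18 and -0.17. Within its pair, miR-106a-5p held 39.2% [36.5 to 42.0] at 12 h and 47.6% [46.1 to 49.2] at 24 h, beside 41.5% in untreated Wt1 KO, of which the later share lies outside counting error. miR-20b-5p held 64.0% and 67.5%, beside 67.5%. Paired with miR-25-3p, miR-363-3p held 19.4% and 16.8% [16.5 to 17.2], beside 18.6%. Paired with miR-92a-3p it held 0.832% and 0.817%, beside 0.491%. The log2 odds ratios of that pair were 0.76 [0.69 to 0.84] at 12 h and 0.74 [0.68 to 0.80] at 24 h. miR-92a-3p itself was at log2 ratios of -0.72 and -0.87 against untreated Wt1 KO. miR-18b-3p held 54.9% [51.0 to 58.7] at 12 h, beside 62.2% in untreated Wt1 KO, and 61.7% at 24 h. miR-18b-5p held 60.1% at 12 h and 66.2% [62.6 to 69.6] at 24 h, beside 57.8%. Against untreated Wt1 KO the log2 odds ratio was -0.44 [-0.74 to -0.14] for miR-18b-3p at 12 h and 0.52 [0.15 to 0.88] for miR-18b-5p at 24 h, both beyond counting error. All 3 comparisons share libraries, and the dox libraries may come from another clone than untreated Wt1 KO.

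The members are set out here by hairpin and by arm. In untreated Wt1 KO against WT the 5 members of the first 3 hairpins lay between 1.46 and 2.13, and miR-363-3p, from the last hairpin, lay at 0.53. miR-363-3p has a hairpin partner, miR-363-5p, with 54 and 113 reads in these libraries and a log2 ratio of 0.69 [0.21 to 1.19], which overlaps that of miR-363-3p. With RA in WT, miR-363-5p was at -3.23 [-3.95 to -2.64], beside -3.06 for miR-363-3p. In RA-treated Wt1 KO it had no read against 113 in untreated Wt1 KO, which is at least 2.88-fold lower for a floor of 3 reads. miR-92a-2-5p, the other arm of Mir92-2, had 11 and 19 reads in untreated WT and Wt1 KO, 70 and 127 after dox, and 1 and 1 after RA. In untreated Wt1 KO against WT it was at 0.41 [-0.73 to 1.63], an interval that includes 0. The lower ratio at the end of the cluster thus rests on Mir363 alone, and a part of position in it was not tested. Against untreated Wt1 KO, miR-92a-2-5p was at 2.18 [1.45 to 3.01] at dox 12 h and 1.46 [0.77 to 2.25] at dox 24 h. No member was called higher there. The mean count of miR-92a-2-5p, 38.2, lies below the minimum of 50. miR-92a-1-5p, from the miR-17 to miR-92a cluster, had 1534 and 151 reads in untreated WT and Wt1 KO, and 5528 and 2679 after dox. With RA it had 6157 in WT and 111 in Wt1 KO. A higher level at dox 12 h is thus not particular to Mir92-2. miR-106a-3p had between 0 and 15 reads in a library and miR-19b-2-5p between 0 and 1.

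**Figure D5:**
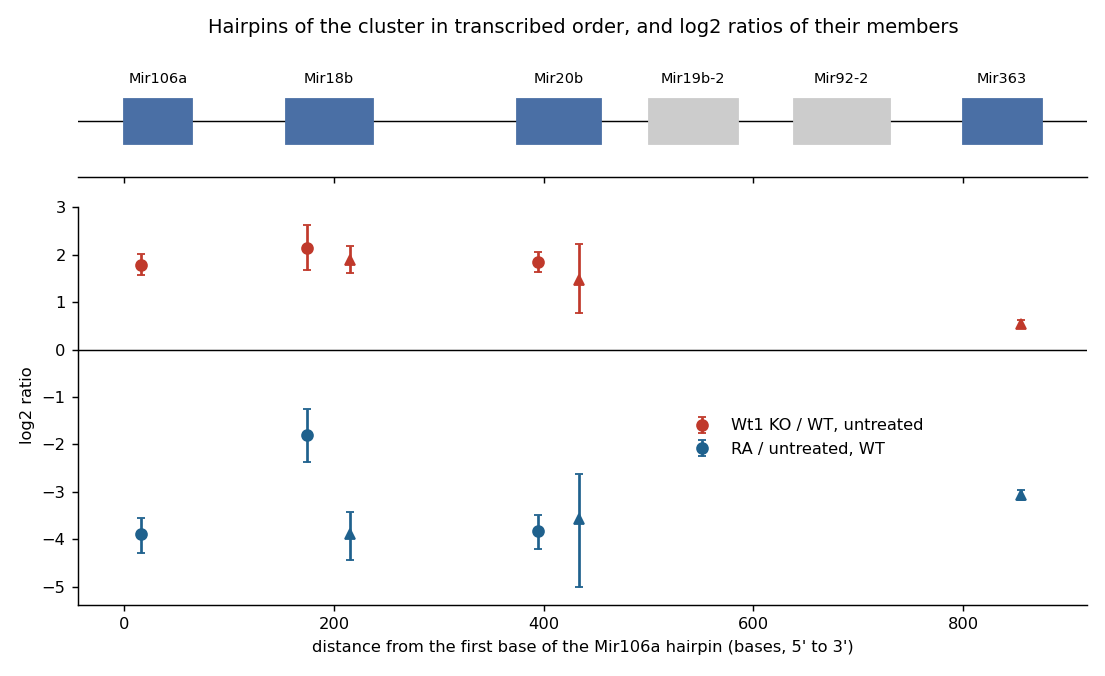
Above, the 6 hairpins to scale by distance in bases from the first base of Mir106a, with those of the members in blue. Below, log2 ratios with 95% intervals of counting error, circles for 5p and triangles for 3p arms. Points are drawn at a fixed fraction of the hairpin's length for each arm, not at the exact place of the mature miRNA. In untreated Wt1 KO against WT (red) the last hairpin, at 0.53, lies below the first 3, and with RA in WT (blue) miR-18b-5p, at -1.81, lies above the rest.

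Within hairpins, the share of the 5p arm in the reads of both arms of miR-20b was between 88.2% and 92.7% in the 6 libraries. For miR-18b the 3p arm held most reads in 5 libraries, with 5p shares of 27.1% for untreated WT, 30.7% for untreated Wt1 KO, 20.3% at dox 12 h, 24.1% at dox 24 h and 33.3% in RA-treated Wt1 KO, while in RA-treated WT the 5p share was 61.4% [52.4 to 69.9]. Its paralog hairpin miR-18a had 20.3% without RA and 40.3% with RA in WT, and 34.8% in untreated Wt1 KO. A higher 5p share with RA in WT was thus counted for both hairpins. For miR-18b it rests on 78 reads of the 5p arm. How far reads of miR-18a-5p entered at miR-18b-5p raise it was not tested.

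Other X-linked miRNAs were called in both directions. Of 35 listed, 33 of which RefSeq places on X, 17 passed the minimum. In untreated Wt1 KO against WT 3 were higher and 4 lower with a median log2 ratio of -0.51, where 12.3% of all tested entries were higher and 15.4% lower. With RA in WT 4 were higher and 5 lower with a median of -0.35, where 22.5% of all tested entries were higher and 24.2% lower. With RA in Wt1 KO 11 of them were higher and 2 lower, with a median of 1.21, where 5 members of the cluster were lower. In that comparison 23.4% of all tested entries were higher and 23.4% lower.

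miRNAs whose 6 levels ran most like the summed cluster were ranked by the root mean square difference of log2 normalised CPM, each centred on its own mean, over the 6 libraries. The nearest of 345 entries were miR-497a-5p at 0.24, miR-292a-3p at 0.35, miR-466f at 0.41, miR-467c-5p at 0.45 and miR-294-3p at 0.45, where the median entry was at 1.62. Counts of miR-497a-5p were 218 and 847 in untreated WT and Wt1 KO, 645 and 1498 after dox, and 14 in Wt1 KO after RA. Against the sum without miR-363-3p, the nearest were miR-294-3p at 0.34, miR-292a-3p at 0.41, miR-291b-5p at 0.46, miR-497a-5p at 0.48 and miR-295-5p at 0.48, of which 4 belong to the miR-290 cluster. This second ranking was chosen after its values were seen. The points share the 6 libraries and their scaling, so the likeness is a description.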

How the data were processed

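Small RNA was sequenced from 6 libraries of mouse embryonic stem cells, 1 per group, and groups were taken from the labels. Per the labels' protocols, RNA was extracted with a Qiagen miRNeasy kit, adapters were ligated, and gel bands of miRNA inserts and of longer small RNAs were both taken. The authors deposited raw counts per mature miRNA, given per the file headers as unique matches and multi-matches. No source used here names the matching tool, the mismatches it allowed, the miRBase version or the build. Every deposited sequence of a member equals that of RefSeq.

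Unique-match counts of the 1899 entries were used, of which 701 had no read. Libraries were scaled by TMM over 351 entries, those whose mean count reached 50 (edgeR 4.0.16 in R 4.3.3), with factors of 1.02, 0.798, 0.922, 0.937, 1.10 and 1.29 for WT and Wt1 KO, both untreated, the 12 h and 24 h dox libraries, and WT and Wt1 KO after RA. All 6 members passed the minimum. Log2 ratios had a prior count of 0.5, and their intervals were exact conditional binomial (Clopper-Pearson) ones, which were checked on simulated counts. Shares had exact Clopper-Pearson intervals, pair ratios conditional exact odds ratio intervals, and the difference of RA responses a delta-method interval. PCR reads without molecular identifiers are not independent molecules, so intervals and floors cover counting error only. With 1 library per group there is no test and no p-value.

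The members, lists and rules were chosen with earlier results of these data known. The miRNAs named are the members, their paralogs, the other arms of their hairpins, the shared miR-19b-3p and miR-92a-3p, and the 5 entries nearest to the summed cluster. miR-291b-5p, miR-295-5p, miR-92a-1-5p, miR-6383 and the blood markers miR-150-5p, miR-155-5p, miR-142a-3p, miR-142a-5p, miR-223-3p and miR-451a fall outside this rule. They were chosen after their values were seen. miR-19b-3p, made by both clusters, had 35, 105, 64, 237, 160 and 7 reads in the order above, and miR-92a-3p between 10631 and 820070 reads. Alternatives were scaling to the library total, by median of ratios (DESeq2 1.42.0) or to the total less the reads of the miR-290 and miR-302 families, a prior count of 2, other minimum counts, adding multi-matches, and leaving out miR-363-3p.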

Additional observations from a re-analysis of the deposited data

How the results depend on the processing

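No called value of a member changed sign under any alternative run. Of 48 member values 25 were called, 2 of these lost the call under some scaling and 3 others gained one. A prior count of 2 and adding multi-matches moved no value beyond its interval. Scaled to the library total, the summed cluster was at 0.67 between the untreated genotypes, -3.09 after RA in WT, -1.35 after RA in Wt1 KO, -0.0269 at dox 12 h, 0.0757 at dox 24 h and 1.73 for the difference of the RA responses. Scaled to the total less both stem cell clusters it was at 0.68, -3.33, -1.48, 0.0926, 0.15 and 1.85 in that order, and at 2.53 between the genotypes under RA. Under both of these scalings 0 members were called lower at dox 12 h and 5 higher in the difference of the RA responses. The median of all entries in that difference moved up by 0.58 and 0.70 under them. The share of all entries called was not computed under these scalings, so these 2 counts are not a result about the members. By median of ratios the sum was at 0.97 between the untreated genotypes, where its call was lost, and at -0.16 at dox 12 h and -0.0744 at dox 24 h. Without miR-363-3p it was at 1.85 between the untreated genotypes, -3.58 after RA in WT, -2.57 after RA in Wt1 KO, 2.85 between the genotypes under RA, -0.61 at dox 12 h and 0.42 for dox 24 h against 12 h. The cause was not tested beyond the construction of each alternative.

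With no minimum on the mean count, entries called higher went from 43 to 66 between the untreated genotypes, from 79 to 120 after RA in WT and from 63 to 103 between the genotypes under RA, and those lower for RA in WT from 85 to 157. For dox 12 h those higher went from 15 to 35, for dox 24 h those higher from 20 to 39 and those lower from 13 to 38, and for 24 h against 12 h those higher from 15 to 23 and those lower from 3 to 23. With a minimum of 10 the counts were 29 higher at dox 12 h, 34 higher and 29 lower at dox 24 h, and 14 lower for 24 h against 12 h. Median shifts of all entries under the 2 CPM scalings ran from -0.35 to 0.70. No paired analysis was possible because each group has 1 library and the labels give no replicate numbers, and for the same reason no library could be left out of a group. Depth limits RA-treated Wt1 KO most, where 5 of the 6 members have 15 reads or fewer.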
